A study of Mus musculus with 6 samples.

Results

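The 52 genes described here encode regulators of G2 and mitosis and parts of the spindle, the kinetochore and the condensed chromosome. They were looked up by name in the deposited table of 54532 genes, and all 52 were found in it. The rule named functions and no measured value, but it was written with earlier results of these data known. Their RNA was measured in mouse bone marrow neutrophils after 6 h with live Candida albicans, a yeast that causes invasive infection. WT libraries (replicates 1 to 3) came from C57BL/6J mice with intact Grn, and PGRN KO libraries (replicates 4 to 6) came from mice of the same labelled strain that lack progranulin, the secreted protein encoded by Grn. Cells were bound through Ly-6G on magnetic beads, kept for 2 h in siliconized tubes and then given the yeast. The labels put the ratio of yeast to cells at 1:1, and the text of the study gives another ratio for them.

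Every library was taken after the yeast had been added, so the comparison is between genotypes within stimulated cells, with no unstimulated sample beside it. The knockout is not limited to neutrophils, and the knockout and WT mice came from different suppliers, so genotype and source cannot be told apart. The sources used here do not say how many mice stood behind a culture or whether the cultures came from separate mice. The p-values therefore measure the spread between these cultures.

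Grn itself was at 168.4, 161.3 and 166.1 FPKM in WT and at 0.242, 0.206 and 0.747 FPKM in PGRN KO. FPKM divides the fragments counted on a gene by the length of the gene and the size of the library. Libraries of one genotype lay further apart than sampling alone gives (chi-square per degree of freedom 2.83 to 11.67). All 12 neutrophil marker genes of a list written for this purpose were measured, led by S100a9 at a mean of 31330 FPKM in WT and 36370 FPKM in PGRN KO, and their sum per library was 67550 to 72170 FPKM in WT and 69350 to 79130 FPKM in PGRN KO. The libraries held 17087344 to 18821091 fragments on genes.

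Cells enter mitosis when the kinase CDK1, bound to a B-type cyclin, is switched on. Chromosomes are condensed by topoisomerase and condensin, captured by spindle microtubules through kinetochores, and held until the checkpoint lets the anaphase-promoting complex release them. In the bone marrow the granulocyte precursors, up to the myelocyte, divide, whereas the mature neutrophil has left the cell cycle. Transcripts of these genes are therefore used as a sign of dividing cells in a marrow sample.

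Mitosis genes were higher in PGRN KO than in WT neutrophils, by a small and widely shared amount. The median ratio of mean FPKM over the 52 genes was 1.20, with a range from 0.933 (Cdc25c) to 1.449 (Top2a and Mki67). Of the 52 genes, 25 (48.1%) rose and 0 fell at an adjusted p under 0.05 from limma, which was fitted to log2(FPKM + 1) over all 14807 genes with a mean of at least 0.1 FPKM. Over all tested genes 7.94% were called higher (1175 genes) and 9.95% lower (1473 genes). Every PGRN KO library lay above every WT library for 35 of the 52 genes (67.3%), against 18.1% of all tested genes, and no member showed the opposite order. The 35 are the 25 called genes and 10 that missed the threshold. In bulk RNA a change in the number of cells of a type and a change in RNA per cell cannot be told apart.

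The shift was seen in the pooled RNA as well as gene by gene. Fragments on the 52 genes made up 0.232%, 0.2295% and 0.2285% of all gene fragments in WT and 0.299%, 0.313% and 0.312% in PGRN KO. The highest WT library was below the lowest PGRN KO library, and the ratio of the means was 1.34. FPKM also divides by gene length, and the authors scaled it to other library sizes. Summed over the 52 genes it was 653.7 to 676.1 in the WT libraries and 748.8 to 788.8 in the knockout. Within PGRN KO, replicate 4 was the lowest library for 28 of the 52 genes and replicate 6 the highest for 26. The genes sit on 16 chromosomes, and Top2a is the only one within 10 Mb of the Grn locus, at 3.44 Mb.

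The size of the difference depended on how libraries were scaled and how the values were fitted. The authors divided by library sizes that were not the sums over genes: the sums were 1.0337 to 1.0393 times the size used for WT libraries but 0.9458 to 0.9575 times that for PGRN KO libraries. Scaled to plain totals of fragments, 36 members were called higher and 0 lower, against 14.5% of all genes called higher (2147 genes, with 933 lower), and the members' median log2 fold change went from 0.23 to 0.34. The limma voom fit on the recovered fragments also scaled by totals, but it weighted the values and did not add 1 FPKM. With voom 45 members were called higher, against 20.2% of all genes, and the median was 0.39. The median over all tested genes was 0.0026 as deposited, 0.067 with plain totals and 0.12 with voom. Relative to it, the members' median stood 0.23, 0.27 and 0.26 higher.

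**Figure D1:**
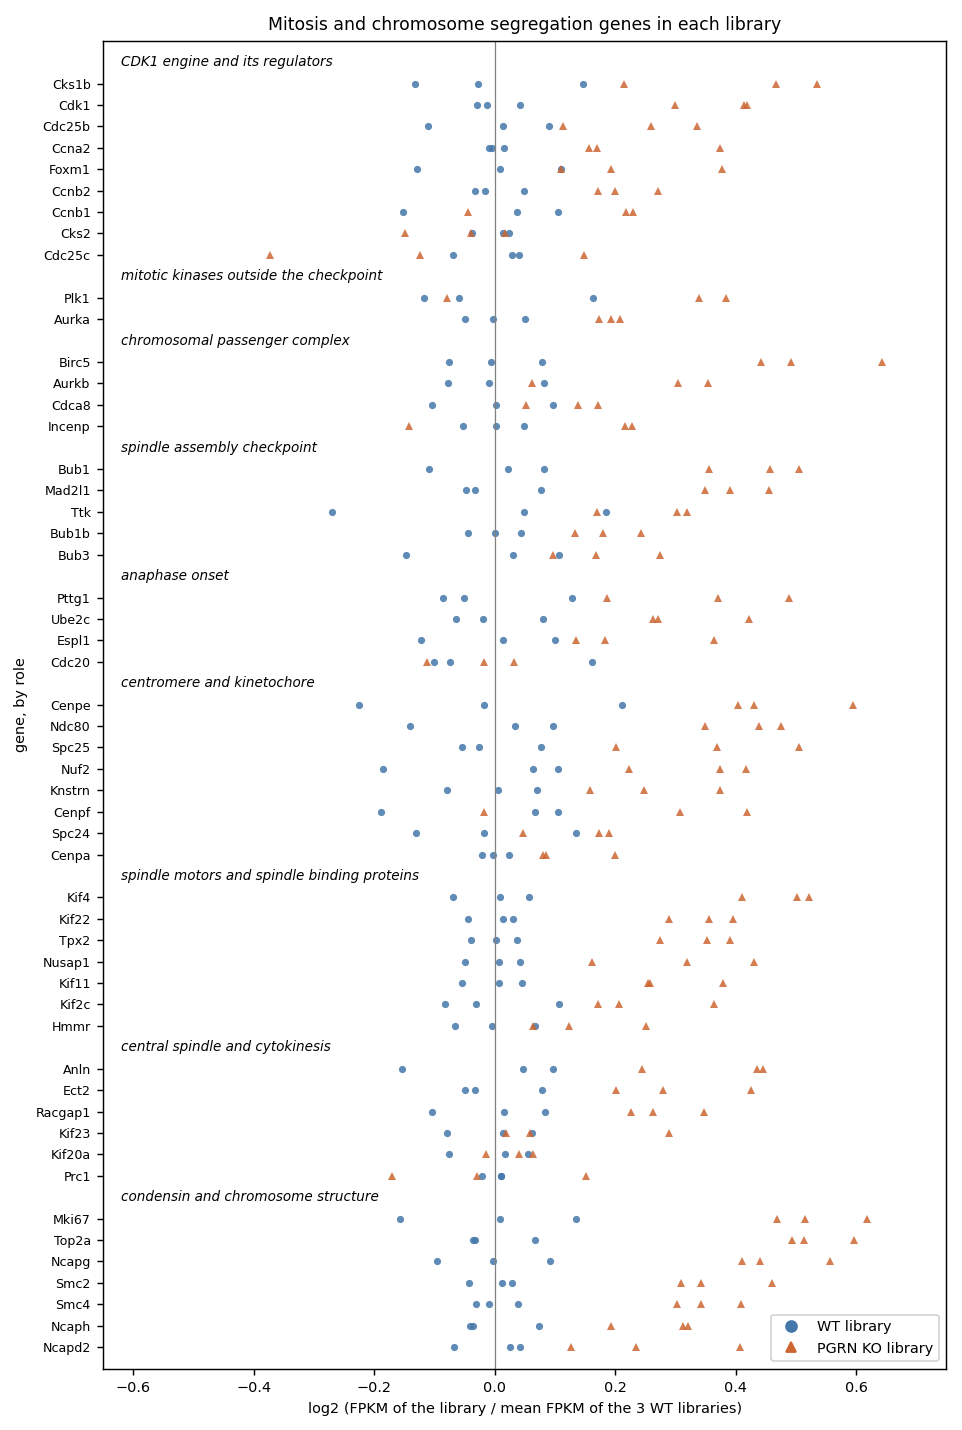
Level of each of the 52 genes in each library, as the log2 ratio to the mean of the 3 WT libraries, grouped by role (circles, WT; triangles, PGRN KO). The triangles lie to the right of all circles for 35 genes and to the left of all circles for 0.

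Top2a, Ccnb2, Cdc20 and Cks2 show the sequence that most of these genes have in common at their start, and where it is missing. They were picked after their values were seen: Top2a and Ccnb2 rose, and Cdc20 and Cks2 did not. Each line gives 150 bases before to 20 bases after the RefSeq start site on GRCm38.p6, read 5′ to 3′ along the gene. Capitals mark the cell cycle genes homology region (CHR, TTTGAA or TTCAAA), its variant TTCGAA, and the CCAAT box (CCAAT or ATTGG). Top2a, which untangles DNA, lies on the minus strand, with the window at chr11:99024170-99024339. Ccnb2 encodes cyclin B2 and is on the minus strand at chr9:70421535-70421704. Cdc20, the activator of the anaphase-promoting complex, is on the minus strand at chr4:118437324-118437493. Cks2, a small CDK-binding subunit, is on the plus strand at chr13:51645082-51645251.
Top2a: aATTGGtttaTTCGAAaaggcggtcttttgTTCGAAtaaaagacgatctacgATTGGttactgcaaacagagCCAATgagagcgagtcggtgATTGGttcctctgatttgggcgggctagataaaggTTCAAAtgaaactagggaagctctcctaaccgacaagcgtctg
Ccnb2: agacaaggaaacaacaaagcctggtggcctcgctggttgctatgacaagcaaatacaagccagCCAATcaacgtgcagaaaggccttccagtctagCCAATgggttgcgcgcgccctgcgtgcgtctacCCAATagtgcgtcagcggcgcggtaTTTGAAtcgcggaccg
Cdc20: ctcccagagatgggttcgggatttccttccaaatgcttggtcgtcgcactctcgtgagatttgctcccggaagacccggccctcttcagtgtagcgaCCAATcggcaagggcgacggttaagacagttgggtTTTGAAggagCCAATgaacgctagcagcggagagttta
Cks2: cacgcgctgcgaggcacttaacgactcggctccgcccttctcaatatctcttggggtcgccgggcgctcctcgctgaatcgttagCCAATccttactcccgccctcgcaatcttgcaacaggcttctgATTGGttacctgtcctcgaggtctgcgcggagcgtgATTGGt

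Counted from the start site, with bases before it negative, the Top2a window held a CHR from -23 to -18, 4 CCAAT boxes and 2 copies of the variant. In Ccnb2 the CHR ran from 5 to 10 bases after the start, and 3 CCAAT boxes began at -87, -54 and -21. Cdc20, which was not called between genotypes, had a CHR that began at -18 and CCAAT boxes that began at -53 and -8. Cks2 had 3 CCAAT boxes and no CHR.

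RefSeq windows of 250 bases before to 50 bases after the start were found for 43 of the 52 genes, as 46 windows. A CHR was present in 34 of the 46 windows (73.9%), against 17.9% of all 32851 RefSeq windows. CCAAT boxes were in 78.3% against 37.4%, and both motifs together in 67.4% against 6.95%. The variant was in 8.70% against 1.56%. An E2F site, searched as TTTGGCGC, TTTCCCGC, TTTGCCGC or TTTCGCGC, was in 6.52% against 2.26%. Both strands were searched, and none of these motifs holds the letters of another. Windows were found for 31 of 40 S phase genes (37 windows). Of these 16.2% held a CHR, 62.2% a CCAAT box and 37.8% an E2F site. For other mitosis genes 57 windows of 50 genes were found. Of these 49.1% held a CHR, 66.7% a CCAAT box, 31.6% both and 10.5% an E2F site.

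**Figure D2:**
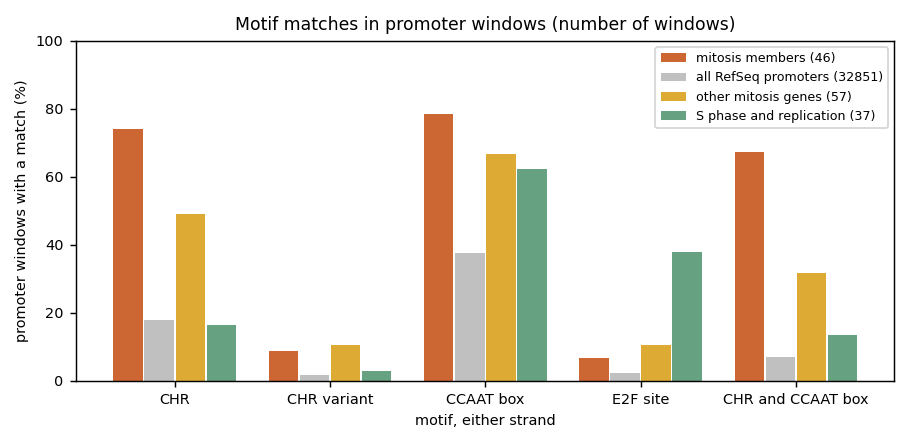
Share of promoter windows with a match on either strand, for the mitosis genes, all RefSeq promoters, 50 other mitosis genes and 31 S phase genes, with the number of windows in the key. The mitosis genes stand highest for the CHR (73.9%) and for the CHR with a CCAAT box (67.4%), and the S phase genes for the E2F site (37.8%).

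Genes with and without the motif were set side by side. Of the 31 genes with a CHR, 16 rose, with a median ratio of 1.20. Of the 12 without one, 7 rose, with a median ratio of 1.25. The 12 are Birc5, Bub1, Ccnb1, Cdc25b, Cenpe, Cks2, Knstrn, Mad2l1, Ncaph, Nuf2, Nusap1 and Pttg1. Among them Bub1 and Cdc25b held the variant TTCGAA. For the CCAAT box, 16 of 33 genes with it rose and 7 of 10 without it. For both motifs together, 14 of 28 rose with them and 9 of 15 otherwise. A match is a string of letters in the window, and binding was not measured here.

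As deposited, condensin and chromosome structure was the role with the highest share of called genes. Of its 7 genes 6 rose, all 7 showed no overlap between genotypes, and their summed level was 89.8 to 93.8 FPKM in WT and 120.0 to 124.7 FPKM in PGRN KO. Scaled to plain totals, all 7 were called higher, as were all 7 spindle motor and spindle binding genes, so the 2 roles tied. Top2a (chromosome 11, 98992943 to 99024189) stood at 18.5, 18.4 and 19.8 FPKM in WT and at 26.6, 26.98 and 28.6 FPKM in PGRN KO. Its mean went from 18.9 ± 0.767 to 27.4 ± 1.06 FPKM (SD, n = 3 each), a ratio of 1.45 and a log2 fold change of 0.51 (SE 0.051, adjusted p = 0.00158 from limma). Mki67 (chromosome 7, 135689784 to 135716361) encodes Ki-67, which coats mitotic chromosomes and is the common stain for dividing cells. It was at 13.8, 15.4 and 16.8 FPKM in WT and 21.9, 21.2 and 23.6 FPKM in PGRN KO, a ratio of 1.45 (log2 fold change 0.51, SE 0.080, adjusted p = 0.00785). For both genes the gap between the highest WT and the lowest PGRN KO library was wider than the range within either genotype.

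Condensin is a ring built on Smc2 and Smc4 with 3 further subunits. Smc4 was at 23.6, 22.8 and 22.5 FPKM in WT and 28.3, 29.1 and 30.5 FPKM in PGRN KO (ratio 1.28, adjusted p = 0.00486 from limma). Smc2 was at 8.76, 9.10 and 9.20 FPKM in WT against 11.2, 11.4 and 12.4 FPKM in PGRN KO (ratio 1.29, adjusted p = 0.0094). The ATPase pair of the ring thus moved by nearly the same ratio. Of the subunits particular to condensin I, Ncapg had a ratio of 1.39 (adjusted p = 0.0111) and Ncaph, the closing subunit, one of 1.21 (adjusted p = 0.0292). Ncapd2 was at 13.5, 13.7 and 12.7 FPKM in WT and 17.6, 15.6 and 14.5 FPKM in PGRN KO, without overlap, but missed the threshold (log2 fold change 0.24, adjusted p = 0.0738). Ncapg shares 944 exon bases with Lcorl on the other strand, and the strand setting of the counting is not given.

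Spindle motors and spindle binding proteins came next as deposited, with 5 of 7 called higher and 6 of 7 without overlap. Kif4, a chromokinesin that works with condensin and at the midzone, was at 3.20, 3.38 and 3.49 FPKM in WT and 4.83, 4.46 and 4.76 FPKM in PGRN KO (ratio 1.39, log2 fold change 0.38, SE 0.060, adjusted p = 0.00797 from limma). It shares 832 exon bases with Pdzd11 on the opposite strand. Kif22, which pushes chromosome arms outward, was at 7.55, 7.25 and 7.63 FPKM in WT against 9.14, 9.84 and 9.57 FPKM in PGRN KO (ratio 1.27, adjusted p = 0.00961). Tpx2, the activator of Aurora A on spindle microtubules, was at 13.8, 13.5 and 14.2 FPKM in WT against 16.7, 17.6 and 18.1 FPKM in PGRN KO (ratio 1.26, adjusted p = 0.00785). In all of them the 3 PGRN KO libraries were the 3 highest.

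Kif11, the motor that separates the spindle poles, had a ratio of 1.23 (adjusted p = 0.0155 from limma), and Nusap1, which bundles microtubules around chromosomes, one of 1.24 (adjusted p = 0.0371). The microtubule depolymerase Kif2c had a ratio of 1.19, without overlap, at an adjusted p of 0.0882. Hmmr, a spindle pole protein, was the one gene of this role whose libraries overlapped, with 5.77, 6.06 and 5.53 FPKM in WT and 6.30, 6.04 and 6.88 FPKM in PGRN KO (adjusted p = 0.238).

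Of 8 centromere and kinetochore genes, 3 rose and 6 did not overlap. The Ndc80 complex, the 4-part link between kinetochore and microtubule, was measured whole. Ndc80 was at 3.85, 4.35 and 4.54 FPKM in WT and 5.41, 5.76 and 5.91 FPKM in PGRN KO (ratio 1.34, adjusted p = 0.0177 from limma), and Spc25 at 8.57, 7.97 and 7.82 FPKM in WT against 9.33, 10.5 and 11.5 FPKM in PGRN KO (ratio 1.29, adjusted p = 0.0358). Nuf2, the partner of Ndc80, had a ratio of 1.27 without overlap and missed the threshold (adjusted p = 0.0604). Spc24, the partner of Spc25, was at 6.77, 7.53 and 6.26 FPKM in WT and 7.82, 7.73 and 7.08 FPKM in PGRN KO, which overlapped (ratio 1.10, adjusted p = 0.32). The 4 genes therefore had ratios between 1.10 and 1.34, with 2 of them called.

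Cenpe, the kinetochore motor, was at 3.13, 3.67 and 2.71 FPKM in WT and 4.27, 4.19 and 4.79 FPKM in PGRN KO (ratio 1.39, adjusted p = 0.0396 from limma). Cenpf, a large kinetochore protein with the lowest WT mean of the 52 genes (1.305 FPKM), overlapped between genotypes at 1.14, 1.37 and 1.40 FPKM in WT against 1.29, 1.74 and 1.62 FPKM in PGRN KO (adjusted p = 0.349). Cenpa, the histone that marks the centromere, was at 8.37, 8.22 and 8.11 FPKM in WT against 8.73, 9.45 and 8.70 FPKM in PGRN KO, without overlap but with a ratio of 1.09 (adjusted p = 0.212). Knstrn, a spindle and kinetochore binding protein, had a ratio of 1.20 without overlap (adjusted p = 0.069).

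In the spindle assembly checkpoint, 2 of 5 genes rose. Bub1, a checkpoint kinase at the kinetochore (chromosome 2, 127801122 to 127831865), was at 11.3, 12.4 and 12.9 FPKM in WT and 15.6, 16.7 and 17.3 FPKM in PGRN KO (ratio 1.36, log2 fold change 0.41, SE 0.065, adjusted p = 0.00837 from limma). Mad2l1, which holds back Cdc20, was at 2.98, 2.95 and 3.22 FPKM in WT against 3.89, 3.997 and 4.18 FPKM in PGRN KO (ratio 1.32, adjusted p = 0.0158). Bub1b, the related BubR1, did not overlap at 7.71, 8.19 and 7.95 FPKM in WT against 9.004, 8.72 and 9.41 FPKM in PGRN KO, but missed the threshold (ratio 1.14, adjusted p = 0.0736). Bub3, which both bind, had a ratio of 1.13 (adjusted p = 0.191). Ttk, the kinase MPS1, had the widest spread in WT, with 1.38, 1.72 and 1.89 FPKM there and 2.07, 1.87 and 2.05 FPKM in PGRN KO (adjusted p = 0.234).

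Birc5 was the only gene of the chromosomal passenger complex past the threshold. It encodes survivin, which targets the complex to the centromere (chromosome 11, 117849251 to 117855743). Its level was 11.4, 10.8 and 10.3 FPKM in WT and 14.7, 16.9 and 15.2 FPKM in PGRN KO, a rise from 10.8 ± 0.581 to 15.6 ± 1.15 FPKM (SD, n = 3 each) with a ratio of 1.44 and a log2 fold change of 0.49 (SE 0.068, adjusted p = 0.00502 from limma). The other 3 genes of the complex overlapped between genotypes. Aurkb, its kinase, was at 10.9, 11.6 and 10.4 FPKM in WT and 14.1, 13.6 and 11.5 FPKM in PGRN KO (ratio 1.19, adjusted p = 0.118). Incenp, its scaffold, was at 17.1, 16.5 and 17.7 FPKM in WT against 19.8, 19.99 and 15.5 FPKM in PGRN KO, with PGRN KO replicate 6 below all WT libraries and the other two above them (adjusted p = 0.557). Cdca8, which encodes borealin, had a ratio of 1.09 (adjusted p = 0.29). Whether Birc5 differed from the other 3 in its response was not tested.

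Among 9 genes of the CDK1 engine, Cdk1, Ccnb2 and Cks1b rose. Cdk1 (chromosome 10, 69335146 to 69352938) was at 9.999, 9.51 and 9.63 FPKM in WT and 11.96, 12.9 and 12.99 FPKM in PGRN KO, a ratio of 1.3 (log2 fold change 0.35, SE 0.053, adjusted p = 0.00728 from limma). Ccnb2, the cyclin B2 gene of the printed window, was at 36.8, 35.2 and 34.8 FPKM in WT against 40.1, 42.9 and 40.9 FPKM in PGRN KO (ratio 1.16, adjusted p = 0.0245). All 3 PGRN KO libraries were above all WT libraries for both. Ccnb1, cyclin B1, overlapped at 12.8, 10.7 and 12.2 FPKM in WT against 11.6, 13.98 and 13.9 FPKM in PGRN KO (ratio 1.10, adjusted p = 0.407), with PGRN KO replicate 4 below 2 of the WT libraries. Ccna2, cyclin A2, did not overlap at 14.8, 14.9 and 15.1 FPKM in WT against 16.6, 16.8 and 19.3 FPKM in PGRN KO (ratio 1.18, adjusted p = 0.0628).

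Of the small CDK subunits Cks1b and Cks2, the first rose and the second was not called. Cks1b was at 15.1, 18.3 and 16.2 FPKM in WT and 19.2, 23.9 and 22.8 FPKM in PGRN KO (ratio 1.33, adjusted p = 0.0409 from limma). Cks2 had the highest WT mean of the 52 genes, at 137, 136 and 131 FPKM in WT and 122, 131 and 137 FPKM in PGRN KO, which overlapped (log2 fold change -0.06, 95% interval -0.18 to 0.07, adjusted p = 0.512). The estimate for Cks2 turned positive, at 0.064, with plain totals. The phosphatases that activate CDK1 were not called either. Cdc25b did not overlap at 5.73, 6.59 and 6.25 FPKM in WT against 7.81, 7.41 and 6.70 FPKM in PGRN KO (adjusted p = 0.107). Cdc25c was at 3.06, 3.31 and 3.28 FPKM in WT and 2.48, 2.95 and 3.56 FPKM in PGRN KO, with both the lowest and the highest library in PGRN KO. It had the fewest fragments of any member in a library, 86, and an adjusted p of 0.629. Its log2 fold change of -0.08 went to 0.0064 with plain totals. Foxm1, the transcription factor of G2 and M phase genes, had a ratio of 1.17 with overlap (adjusted p = 0.167).

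Of the mitotic kinases Aurka and Plk1, Aurka rose. Aurka, the centrosome kinase Aurora A, was at 13.05, 13.98 and 13.5 FPKM in WT and 15.4, 15.2 and 15.6 FPKM in PGRN KO, a small difference with a small spread (ratio 1.14, adjusted p = 0.0393 from limma). Plk1 was at 20.9, 17.9 and 17.2 FPKM in WT against 23.7, 24.4 and 17.7 FPKM in PGRN KO, with a larger ratio of 1.17 but with PGRN KO replicate 6 inside the WT range (adjusted p = 0.33).

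The genes of anaphase onset split evenly. Ube2c, the ubiquitin-conjugating enzyme of the anaphase-promoting complex, was at 34.1, 30.9 and 31.8 FPKM in WT and 38.9, 43.2 and 38.7 FPKM in PGRN KO (ratio 1.25, adjusted p = 0.0173 from limma). Pttg1, securin, was at 22.5, 19.8 and 19.4 FPKM in WT against 23.4, 28.8 and 26.6 FPKM in PGRN KO (ratio 1.28, adjusted p = 0.0459). Espl1, the separase that securin holds, did not overlap but missed the threshold (ratio 1.17, adjusted p = 0.21). Cdc20 was at 30.4, 25.3 and 25.8 FPKM in WT and 27.8, 26.8 and 25.1 FPKM in PGRN KO, where WT replicate 1 was the highest of the 6 libraries. Its log2 fold change of -0.03 had a 95% interval of -0.21 to 0.16 (adjusted p = 0.851) and was positive with plain totals (0.089) and without WT replicate 1 (0.053).

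Of 6 genes of the central spindle and cytokinesis, 2 rose. Anln, anillin of the contractile ring, was at 2.74, 3.26 and 3.15 FPKM in WT and 4.15, 3.62 and 4.13 FPKM in PGRN KO (ratio 1.3, adjusted p = 0.0473 from limma), and Racgap1 of the centralspindlin complex at 7.65, 7.30 and 6.72 FPKM in WT against 8.45, 9.19 and 8.67 FPKM in PGRN KO (ratio 1.21, adjusted p = 0.0381). Ect2, the exchange factor that Racgap1 recruits, did not overlap (ratio 1.24, adjusted p = 0.0587). Kif23, the motor of centralspindlin, overlapped (ratio 1.09, adjusted p = 0.417). Kif20a, a midzone motor, was at 6.20, 5.81 and 6.37 FPKM in WT and 6.30, 6.06 and 6.41 FPKM in PGRN KO (ratio 1.02, 95% interval of the log2 fold change -0.11 to 0.16). Prc1, which bundles midzone microtubules, was at 4.69, 4.79 and 4.79 FPKM in WT against 4.66, 4.22 and 5.28 FPKM in PGRN KO (ratio 0.993, 95% interval -0.20 to 0.17), and its estimate of -0.01 was 0.087 with plain totals. Kif20a shares 1271 exon bases with Cdc23 and Prc1 shares 911 with Rccd1, each on the opposite strand. Reads within the shared bases cannot be told apart without strand. Cdc23 averaged 1.292 FPKM in WT and 1.245 FPKM in PGRN KO, and Rccd1 0.192 and 0.244 FPKM. In all, 17 of the 52 genes share exon bases with another gene.

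**Figure D3:**
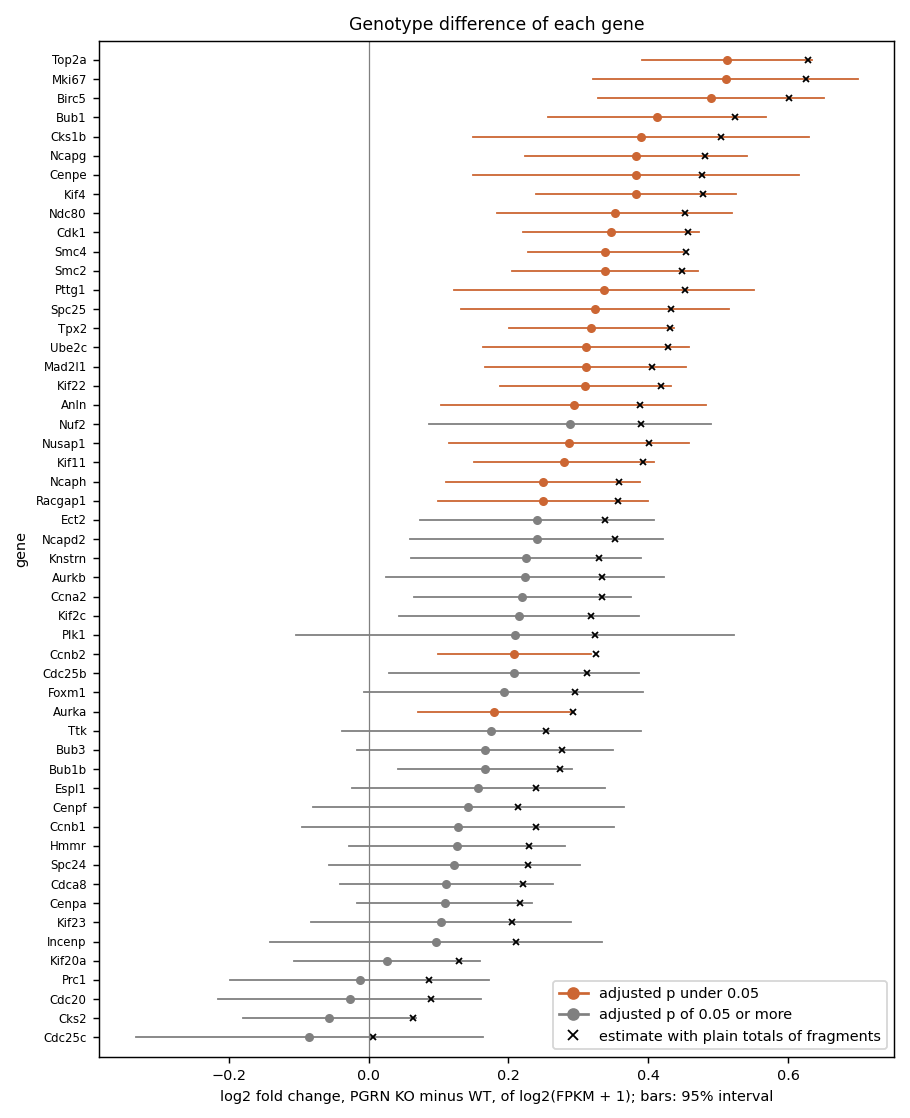
Estimated log2 fold change (PGRN KO minus WT, of log2(FPKM + 1)) of each gene with its 95% interval from limma, in orange where the adjusted p is under 0.05, and the estimate with plain totals of fragments as a cross. As deposited, 48 of 52 estimates lie above 0, from Cdc25c at -0.08 to Top2a at 0.51, and with plain totals all lie above 0.

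The calls did not rest equally on all libraries. Birc5, Bub1, Cdk1, Kif22, Kif4, Mki67, Ncapg, Smc2, Smc4, Top2a and Tpx2 were called higher in each of the 6 fits that left out 1 library. Each of the other 14 called genes dropped out in 2 or more of them, and Anln, Aurka and Racgap1 in all 6. The count of members called higher fell from 25 to 16, 13 and 14 without WT replicates 1, 2 and 3, and to 12 without PGRN KO replicate 5. It was 20 without PGRN KO replicate 4 and 19 without replicate 6. The count over all tested genes fell in the same fits. From 1175 it went to 695, 600 and 698 without WT replicates 1, 2 and 3. Without PGRN KO replicates 4, 5 and 6 it was 947, 581 and 863. The members' median log2 fold change stayed between 0.22 and 0.25 in these 6 fits. Across the 52 genes, which share the same 6 libraries, Pearson's r between the log2 ratio and the log2 WT mean was -0.125 and Spearman's rho -0.054. With the length of the gene r was 0.311 and rho 0.331.

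Ratios of related genes within a library are free of the scaling, and 5 pairs were compared, chosen after the values were seen. Cks1b over Cks2 was 0.110, 0.134 and 0.123 in WT and 0.157, 0.182 and 0.167 in PGRN KO, so the libraries did not overlap. Bub1 over Bub1b was 1.46, 1.51 and 1.62 in WT and 1.73, 1.92 and 1.84 in PGRN KO, also without overlap. For both pairs the two-sided exact permutation test gave p = 0.10, the smallest value that 3 against 3 libraries allow, and 0.25 after adjustment over the 5 pairs. Ccnb1 over Ccnb2 averaged 0.335 ± 0.0262 (SD of 3 WT libraries) against 0.318 ± 0.0262 (SD of 3 PGRN KO libraries, exact p = 0.50), and Aurka over Aurkb averaged 1.23 ± 0.055 against 1.19 ± 0.144 (exact p = 0.60). Cdc25b over Cdc25c was 1.87 to 2.00 in WT and 3.15, 2.51 and 1.88 in PGRN KO (exact p = 0.30). These 3 pairs overlapped between genotypes. The table also holds related copies of Cks1b, Ccnb1, Ccnb2, Kif22 and Kif4, so the levels of these 5 genes are uncertain where the counting split reads between copies.

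**Figure D4:**
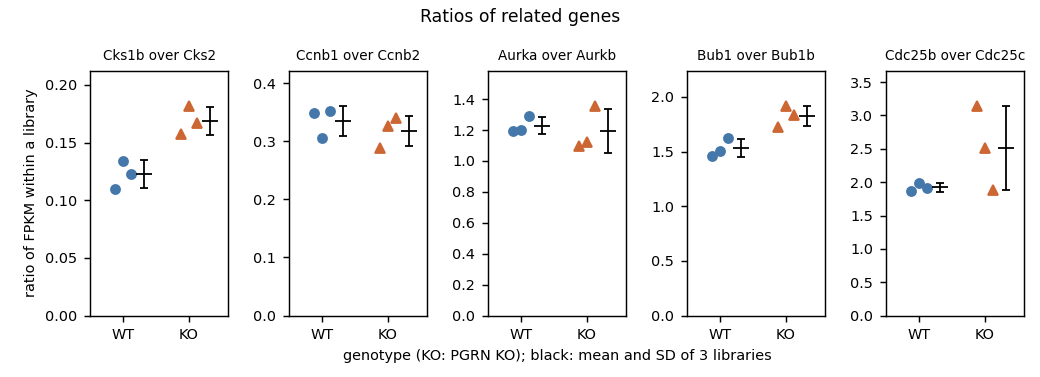
Ratio of the FPKM values of 2 related genes within each library, for 5 pairs (circles, WT; triangles, PGRN KO; black, mean and SD of 3 libraries; each axis starts at 0). The genotypes do not overlap for Cks1b over Cks2 and for Bub1 over Bub1b, and they overlap for the other pairs.

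Other genes of the cell cycle were set beside these 52, where 7.94% of all tested genes were called higher and 9.95% lower. Of 60 further genes of mitosis 18 rose and 0 fell, with a median log2 fold change of 0.16, and Cenpm (0.63), Pbk (0.47) and Cdca3 (0.46) had the largest differences. Their summed level was 289.4 to 292.2 FPKM in WT and 351.2 to 353.1 FPKM in PGRN KO. Of 40 genes of S phase and replication 21 rose and 0 fell, with a median of 0.30, led by Gins1 (0.76) and Mcm6 (0.57) of the replicative helicase and Gmnn (0.67), the inhibitor of replication licensing, and the sum went from 220.5 to 227.3 FPKM in WT to 281.2 to 285.2 FPKM in PGRN KO. Leaving out 1 library lowered the first count to between 10 (without WT replicate 2; 11 without WT replicate 1) and 15 and the second to between 13 (without PGRN KO replicate 5) and 17. Gins1 rested on few reads, with 68 fragments over the WT libraries, 184 over the PGRN KO libraries and a least count of 14. Its ratio of mean FPKM was 2.45, which the log2(FPKM + 1) scale understates. No test compared these lists with the 52 genes.

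Smaller lists covered the machinery that holds chromosomes together, destroys mitotic proteins or controls the genes. Their counts stand beside 7.94% of all tested genes called higher and 9.95% called lower. Of 13 cohesin genes 4 rose and Mau2, a cohesin loader, fell. The 4 were Esco2 (0.38), Cdca5 (0.37), Smc3 (0.36) and Smc1a. Of 17 genes of the anaphase-promoting complex and its regulators 4 rose and 1 fell, with Anapc13 at 0.44, Anapc5 at 0.43 and Fbxo5 at 0.37 beside Anapc11, and Cdc27 was the gene that fell, at -0.27. Of 12 genes of the DREAM and MuvB complexes, which repress or activate promoters with a CHR, Mybl2 alone rose (2.38 ± 0.277 to 3.61 ± 0.375 FPKM, SD, n = 3 each, adjusted p = 0.0192 from limma), and the median was 0.14. That is 8.33% of the list, near the share of all tested genes. With plain totals 6 of these 12 were called higher, against 14.5% of all tested genes. In the deposited scaling 0 were called without WT replicate 1 or 3 or PGRN KO replicate 4 or 5. Of 12 tested G1 cyclins and CDK inhibitors, Cdk6 (0.35), Cdk2 (0.28) and Ccnd3 rose, and the CDK inhibitor gene Cdkn1a fell from 170.1 ± 3.55 to 143.4 ± 8.23 FPKM (SD, n = 3 each, adjusted p = 0.0201). The list as a whole had a median of -0.01. With plain totals Cdkn1a, Cdc27 and Mau2 were no longer called. Of the cohesin genes 1 was called higher without WT replicate 1 or 2 and 2 without WT replicate 3 or PGRN KO replicate 5, and Mau2 was called in none of the 6 fits that left out a library. The anaphase-promoting complex had 2 higher calls without WT replicate 2 or 3 or PGRN KO replicate 5, and Cdc27 was called lower only without PGRN KO replicate 6. The G1 list had 0 higher calls without WT replicate 2 or PGRN KO replicate 5 and 1 without WT replicate 1 or 3, and Cdkn1a was called lower in 3 of the 6 fits.

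**Figure D5:**
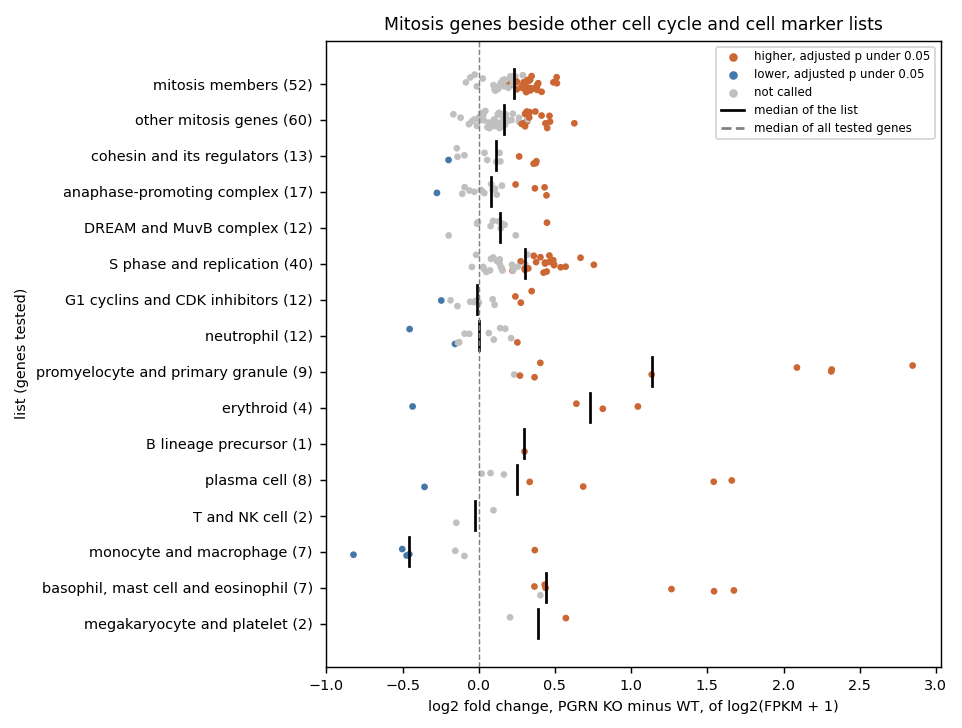
Log2 fold change (PGRN KO minus WT, of log2(FPKM + 1)) of every tested gene of the 52 mitosis genes and of 15 other lists, with calls in color and the median of each list as a bar. The mitosis genes have a median of 0.23 and the S phase genes 0.30, against 1.14 for promyelocyte and primary granule genes and 0.0015 for neutrophil genes.

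Markers of some other cells rose beside the mitosis genes and those of others did not. For all marker lists, the shares over all tested genes were 7.94% called higher and 9.95% called lower. Of 9 tested promyelocyte and primary granule genes 8 rose, with a median log2 fold change of 1.14, led by Ctsg, Prtn3 and Mpo, and 6 or 7 were called with 1 library left out. Their summed level was 212.6 to 247.7 FPKM in WT and 717.2 to 783.6 FPKM in PGRN KO. The progenitor genes Myb (2.10 to 3.10 FPKM) and Kit (1.43 to 2.12 FPKM) were among the 8, and Cd34 was under the minimum for testing. Promyelocytes are dividing cells that make primary granules. Of the 12 neutrophil genes, in contrast, 1 rose (Mmp9, 8.33% of the list), 2 fell (Mmp8 and Csf3r) and the median was 0.0015. Plain totals gave 4 higher and 0 lower and a median of 0.12, beside 14.5% of all tested genes called higher. No neutrophil gene was called in either direction without WT replicate 1, 2 or 3 or PGRN KO replicate 5. Without PGRN KO replicate 4, 3 were called higher and 2 lower, and without replicate 6, 1 was called lower. The part of promyelocytes in the difference of the mitosis genes was not tested.

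Further lists covered the other dividing or marrow cells that the beads could have left. Of 7 tested basophil, mast cell and eosinophil genes 6 rose, and the sum went from 3.98 to 4.37 FPKM in WT to 15.1 to 20.1 FPKM in PGRN KO, with Prss34, Mcpt8 and Prg2 showing the largest differences. The 6 became 3 without WT replicate 1, WT replicate 3 or PGRN KO replicate 6, and 4 without WT replicate 2 or PGRN KO replicate 4. Epx, among the 6, passed the minimum for testing only through PGRN KO, with 53 fragments there and 6 in WT. Of 8 plasma cell genes 4 rose and 1 fell (Prdm1), and the sum was 89.5 to 96.5 FPKM in WT and 146.9 to 158.2 FPKM in PGRN KO. The 4 were Jchain, Mzb1, Derl3 and Tnfrsf17. Tnfrsf17 passed the minimum for testing only through PGRN KO, with 12 fragments there and 0 in WT. Its call is therefore not independent of the filter. Prdm1 was no longer called with plain totals, without WT replicate 1 or 2, or without PGRN KO replicate 5 or 6. Tfrc, which other dividing cells also express, fell, and the other erythroid genes had means of at most 2.77 FPKM. Of the 4 tested, Hba-a1, Hbb-bs and Hbb-bt rose, and the sum with Tfrc was 63.2 to 71.8 FPKM in WT and 50.4 to 56.3 FPKM in PGRN KO. Of these 3 globin genes 1 was called without WT replicate 3 or any of the PGRN KO libraries, and 2 without WT replicate 1 or 2. Of 9 B lineage precursor genes only Vpreb3 passed the minimum, and it was called higher on 11 fragments over the 3 PGRN KO libraries, with 0 over the WT libraries. It kept that call in 1 of the 6 fits with a library left out, the one without PGRN KO replicate 6. The sum of this list was 0.00604 to 0.0368 FPKM in WT and 0.178 to 0.399 FPKM in PGRN KO, and Rag2, Pax5 and Dntt were at 0 in all 6 libraries.

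Of 7 tested monocyte and macrophage genes 4 fell, among them Ccr2, Cd68 and F13a1, and Ly6c2 rose, with a sum of 1005 to 1072 FPKM in WT and 912 to 1079 FPKM in PGRN KO. Ly6c2 was called only with all 6 libraries or without PGRN KO replicate 4, and 3 or 4 genes were called lower in every fit with a library left out. T and NK cell genes summed to 0.367 to 1.09 FPKM in WT and 0.484 to 0.828 FPKM in PGRN KO, with neither of the 2 tested genes called and Cd3e and Cd3g at 0 in all libraries. Megakaryocyte and platelet genes summed to 0.458 to 0.768 FPKM and 1.21 to 1.47 FPKM, with Pf4 called higher, except without WT replicate 2 or PGRN KO replicate 5, and Gp1bb at 0. The part of these cells in the difference of the mitosis genes was not tested.

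Tested genes of a similar level give a second background. Among the 8191 tested genes with a WT mean between those of Cenpf and Cks2 (1.305 to 135.0 FPKM), 10.6% were called higher and 14.7% lower, and the median log2 fold change was -0.02. Replicates of the mitosis genes were close to each other, with a median coefficient of variation of 5.01% in WT and 6.27% in PGRN KO. The widest were Ttk in WT (15.7%) and Cdc25c in PGRN KO (18.1%).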

How the data were processed

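Poly(A) RNA of 3 WT and 3 PGRN KO cultures was sequenced as paired 150 bp reads. The authors mapped them with HISAT and deposited FPKM values, scaled to library sizes other than the plain totals. The submitters' notes name HISAT2 2.0.5, featureCounts 1.5.0-p3, DESeq2 1.20.0 and build GRCm38 (mm10), while the paper's methods name HTSeq. FPKM multiplied by gene length came within 0.05 of whole fragments for every value, which gave the depth. Genotypes were compared with limma 3.58.1 (R 4.3.3, lmFit, eBayes with trend) on log2(FPKM + 1), with Benjamini-Hochberg adjustment and two-sided tests. This scale understates changes of low genes. The fit was tested on simulated data with plain totals and planted changes larger than those of any member. That test does not cover differences as small as theirs or the deposited scaling. Tables used Python 3.11.15, numpy 2.4.6, pandas 2.3.3 and scipy 1.17.1.

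The 52 members and the lists were chosen with earlier results of these data known. Named were every member, Grn, the 3 genes of a list with the largest absolute log2 fold change and markers at 0. Others were named after their values were seen, namely the genes behind counts of 5 or fewer, S100a9, Myb, Kit and Cd34. Positions are GRCm38 (49 of 52 members have the same coordinates in GENCODE M21). The alternatives tried were 2 pseudocounts, 2 filters, 3 scalings, 2 eBayes settings, voom, protein-coding genes alone and each library left out. No library was dropped from the reported fit. Values of 2 marker genes are not reported here.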

Additional observations from a re-analysis of the deposited data

How the results depend on the processing

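Direction and call of the members' count were followed over 17 alternatives, and the count of members called lower stayed at 0 in all of them. As given above, 45 members were called higher with voom. The members' median log2 fold change moved by more than the spread between replicates with a pseudocount of 0.1 FPKM (0.26), plain totals (0.34) and voom (0.39). Over all genes, plain totals gave 2147 higher and 933 lower calls, and voom gave 2986 higher calls. With 1 library left out, members called higher ranged from 12 to 20, their median from 0.22 to 0.25, all genes called higher from 581 to 947 and called lower from 804 to 1282. Estimates that changed sign were those of Cks2 (0.032 with quantile normalization, 0.064 with plain totals, 0.065 with voom), Cdc20 (0.0014, 0.089 and 0.092 in the same order, and -0.073 to 0.053 with 1 library left out), Cdc25c (0.0064 with plain totals, 0.013 with voom, -0.18 to 0.011 with 1 library left out), Prc1 (0.087 with plain totals, 0.11 with voom, -0.082 to 0.051 with 1 library left out) and Kif20a (-0.0059 to 0.051 with 1 library left out). For these changes the cause was not tested. No paired analysis was possible because the genotypes share no replicate numbers. The smallest number of fragments behind a member in a library, 86, limits Cdc25c.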
